A study of Mus musculus with 32 samples.

Results

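The choroid plexus genes *Ttr*, *Kl*, *Folr1*, *Clic6*, *Enpp2*, *Slc4a5*, *Otx2*, *Aqp1*, *Cldn2* and *Prlr* were followed through RNA sequencing libraries of mouse striatum. They were chosen by symbol as 10 of the 23420 genes in the count files, with their differences between genotypes and lane pairs in these libraries already known, so those differences are given here as a description and nothing is read from a test of them. Bilateral striatal punches were pooled within each animal from 8 Line 4a mice and 8 of their B6 littermates, all naïve. Line 4a mice are heterozygous for a segment of chromosome 11 from the donor strain, DBA/2J (D2), on a C57BL/6J (B6) background. The littermates carry B6 alleles in that segment. Outside that segment the study found a residual marker of the donor strain on another chromosome, in mice of both genotypes. The labels do not give the alleles of a mouse at that marker. The labels put the animals at about 50 days of age and the punches at 3 mm, while the methods of the study give a smaller diameter and a wider age range. Each genotype included both sexes, but the labels name neither the sex nor the home cage of a mouse, and Line 4a is a single congenic line. Mice 1 to 4 of each genotype were sequenced on lanes 5 and 6 and mice 5 to 8 on lanes 7 and 8, and the lane files of a mouse were summed.

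The choroid plexus is the folded tissue inside the brain ventricles that secretes cerebrospinal fluid. Its single layer of epithelial cells, joined by tight junctions and resting on a stroma of vessels and fibroblasts, moves ions, water, folate and hormones between blood and fluid. The lateral ventricle, with its choroid plexus, runs along the medial face of the striatum.

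The summed libraries held 19032826 to 33748353 counts on genes. In Line 4a mouse 1, 27.3% of reads aligned to more than 1 place, against 19.5% to 21.4% in the other 15. In B6 mouse 8, 68.3% of reads fell on genes, against 61.4% to 64.4% in the other 15. For B6 mouse 7, 1 lane file was used here. Genes that define the striatum were abundant, with *Ppp1r1b* between 1052 and 1934 CPM (counts relative to the library total, scaled by TMM factors) and *Penk* between 997 and 1660 CPM. The choroid plexus genes together took 0.0375% to 0.0667% of the gene counts of a mouse. Most of this share was *Enpp2*, which oligodendrocytes also express, at a mean of 401 CPM against 53.7 CPM for *Ttr*, the next highest. All 10 choroid plexus genes passed the filter on low counts that left 15589 genes. Between the lane files of a mouse their counts differed with chi-squares of 0.269 to 2.00 relative to the degrees of freedom. In these bulk libraries, fewer cells of a type and less RNA per cell cannot be told apart.

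*Enpp2* and *Ttr* stood far above the other members per length of exon. The level was 115 CPM per kilobase for *Enpp2*, which encodes autotaxin, the secreted enzyme that makes lysophosphatidic acid. *Ttr*, the transthyretin that carries thyroid hormone and retinol-binding protein in plasma and cerebrospinal fluid, followed with 44.1 CPM per kilobase. The chloride channel family gene *Clic6* had 3.74 and *Kl*, encoding klotho, the co-receptor of a fibroblast growth factor hormone, had 1.08 CPM per kilobase. The other 6 members lay between 0.0907 and 0.304 CPM per kilobase, from the bicarbonate cotransporter gene *Slc4a5* up to the water channel gene *Aqp1*. Lengths come from the GENCODE annotation of mm9, in which *Prlr* shares 155 bp of exon with *Agxt2* and *Ttr* shares 11 bp with the opposite-strand gene *Gm16090*. Union-mode counting without strand gives reads in such stretches to neither gene. Whether the annotation that the authors counted on holds these overlaps was not checked.

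Among the mice, *Ttr* varied more than almost any other gene. In B6 mice 1 to 8 it measured 22.2, 14.1, 7.63, 34.8, 104.6, 63.9, 86.4 and 22.7 CPM. In Line 4a mice 1 to 8 it measured 86.0, 35.4, 142.0, 75.3, 62.8, 66.5, 21.7 and 13.6 CPM. High and low mice occurred in both genotypes, and the highest mouse, Line 4a mouse 3, had 18.6 times the level of the lowest, B6 mouse 3. With 216 to 3538 reads behind each value, counting error was a coefficient of variation of 2.60%, whereas the variation among the 16 mice was 71.8%. The SD of log2 CPM within genotype was 1.22 for *Ttr*, against a median of 0.17 over all genes tested. This placed *Ttr* at rank 22 of 15589, and at rank 6 of the 10321 genes with at least 10 CPM. An SD within genotype still holds the differences between lane pairs with which the members were chosen, so these ranks are a description.

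**Figure D1:**
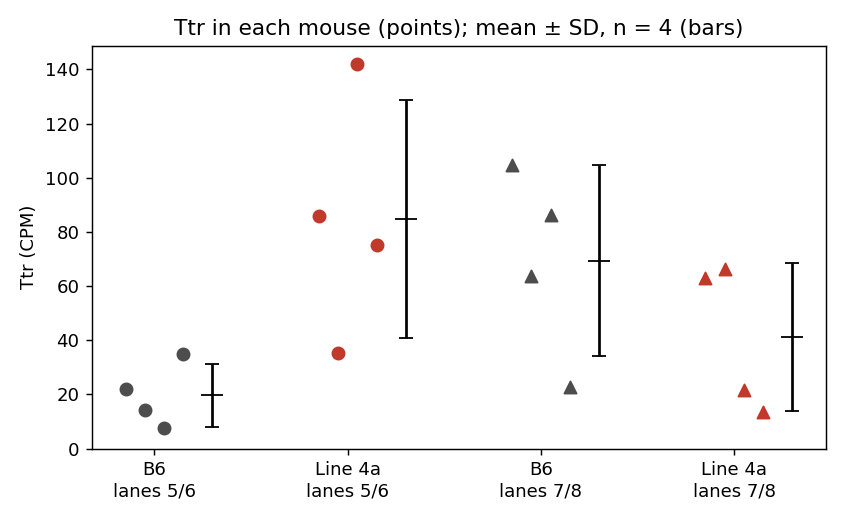
*Ttr* in CPM (linear axis from 0) in each of the 16 mice, as circles for lanes 5 and 6 and triangles for lanes 7 and 8, grey for B6 and red for Line 4a. Bars give the mean ± SD of the 4 mice of each group, and the B6 mice of lanes 5 and 6, at 7.63 to 34.8 CPM, all lie below the Line 4a mice of those lanes, at 35.4 to 142.0 CPM.

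Of the 10 members, 8 were in the upper 10% of all genes by this SD, and the 2 that were not, *Clic6* and *Enpp2*, are with *Ttr* the members of highest CPM. That count is a description too, for the same reason. *Kl* went from 2.54 CPM in B6 mouse 3 to 9.43 CPM in Line 4a mouse 3, with a median of 5.23 CPM. *Cldn2*, encoding a tight junction claudin that forms pores for cations and water, went from 0.0707 to 0.602 CPM in the same pair of mice. *Slc4a5* went from 0.106 CPM in B6 mouse 3 to 1.21 CPM in B6 mouse 7. These low levels rest on few reads, 2 to 15 per mouse for *Cldn2* and 3 to 26 for *Slc4a5*, so that counting error alone was a coefficient of variation of 33.9% and 26.2%, against 59.0% and 61.0% among the mice.

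The folate receptor gene *Folr1*, whose product moves folate into the cerebrospinal fluid, ranged from 0.150 to 1.20 CPM with a median of 0.477. *Otx2*, the homeobox transcription factor of the choroid plexus epithelium, ranged from 0.0901 CPM in B6 mouse 2 to 1.10 CPM in B6 mouse 7. *Aqp1*, encoding the water channel of the apical membrane, ranged from 0.495 CPM in Line 4a mouse 8 to 1.56 CPM in Line 4a mouse 3. The prolactin receptor gene *Prlr* had its highest level, 7.62 CPM, in B6 mouse 1, a mouse of low *Ttr*. *Clic6* and *Enpp2* were steady by comparison, at 10.9 to 17.9 CPM and 340 to 489 CPM, with coefficients of variation of 13.9% and 9.37%. Line 4a mouse 3 was the highest mouse for *Ttr*, *Kl*, *Folr1*, *Enpp2*, *Aqp1* and *Cldn2*, and B6 mouse 3 the lowest for *Ttr*, *Kl*, *Clic6*, *Slc4a5*, *Cldn2* and *Prlr*.

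**Figure D2:**
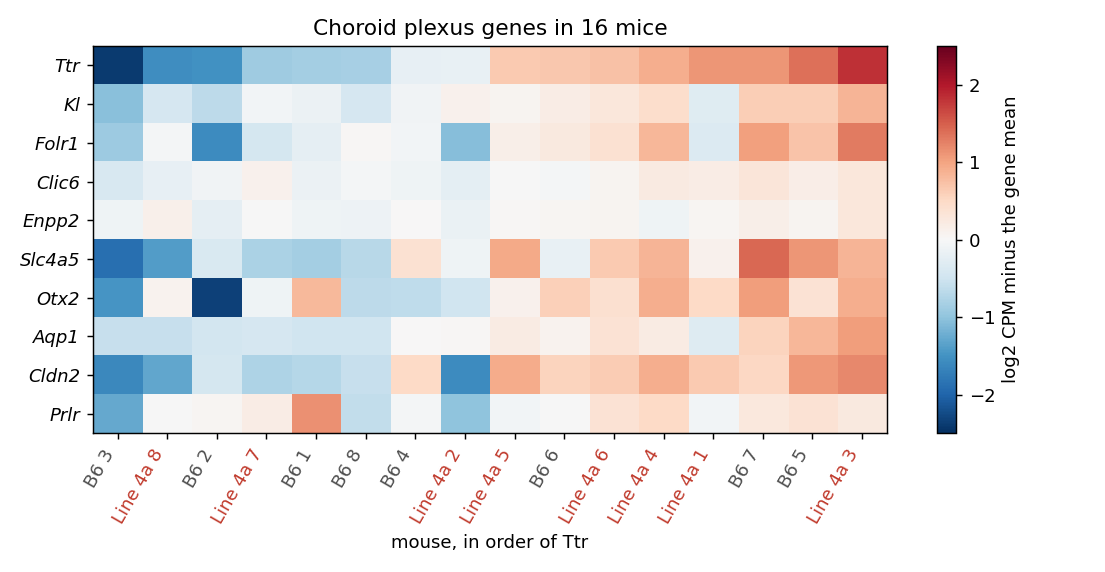
Log2 CPM of each member minus its mean over the 16 mice (colour scale, red above and blue below the mean), with mice ordered from the lowest to the highest *Ttr*; B6 labels are grey and Line 4a labels red. Most rows pass from blue at B6 mouse 3 to red at Line 4a mouse 3, where the mean over the members goes from −1.17 to 0.88.

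The members went up and down together from mouse to mouse. Each was correlated over the 16 mice with the mean centred log2 CPM of the other 9, as a description, since all values of a mouse share its punch, library and scaling. Pearson's r was 0.93 for *Ttr*, 0.91 for *Kl*, 0.85 for *Slc4a5* and *Cldn2*, 0.84 for *Folr1*, *Clic6* and *Aqp1*, 0.74 for *Otx2* and 0.65 for *Enpp2*. *Prlr* was the weakest, with an r of 0.52 that was 0.36 without the 2 mice farthest from the median. Spearman's rho went from 0.58 for *Prlr* to 0.91 for *Ttr* and *Kl*. Within genotypes and within lane pairs r stayed above 0.7 for *Ttr*, *Kl*, *Folr1*, *Clic6*, *Slc4a5*, *Otx2*, *Aqp1* and *Cldn2*. A genotype still holds the difference between lane pairs, and a lane pair that between genotypes. The members were chosen with both known, so nothing is read from r within these splits.

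To set this beside all other genes, log2 CPM of *Ttr* was entered next to genotype in a fit over the other 15588 genes (edgeR's quasi-likelihood test, Benjamini-Hochberg adjusted). *Kl* had the lowest p of all, rising by 0.37 (SE 0.05) on the log2 scale for each doubling of *Ttr*, with an FDR of 0.0249. *Cldn2* rose by 0.74 (SE 0.11) and *Slc4a5* by 0.71 (SE 0.11), each with an FDR of 0.0266, and *Aqp1* rose by 0.40 (SE 0.07) with an FDR of 0.0423. Thus 4 of 9 members passed an FDR of 5%, beside 6 genes, or 0.0385%, of all those tested. This fit keeps the differences between lane pairs with which the members were chosen, so the count is a description and no support. With lane pair as a covariate, 0 members passed.

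The 5 other members did not pass in the fit without lane pair. *Folr1* had a slope of 0.50 (SE 0.11, FDR 0.344) and *Clic6* one of 0.13 (SE 0.03, FDR 0.392), while *Otx2* had 0.45 (SE 0.13), *Prlr* 0.15 (SE 0.12) and *Enpp2* 0.06 (SE 0.03), all 3 with an FDR of 1.00. All 9 slopes were above 0, with a median of 0.40 against 0.00 over all genes, and 8 had an unadjusted p under 0.05, against 2.44% of all genes. These counts too are a description, since the lane pair differences remain in the fit. Both genes that passed without being members were looked at after their values were seen. *1500015O10Rik* (*Ecrg4*), a secreted peptide gene of choroid plexus epithelium, rose by 0.52 (SE 0.09, FDR 0.0423), and *1110059M19Rik* (*Prr32*), on the X chromosome, rose by 0.78 (SE 0.13, FDR 0.0423).

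These calls depend on which mice enter the fit, and the fit was chosen after the data were seen. No gene passed without B6 mouse 3, 5 or 7 or without Line 4a mouse 3, 4 or 8, and 1 gene passed without B6 mouse 1 or Line 4a mouse 7, in each case a member, while 8 genes passed without Line 4a mouse 1, the library with many repeated alignments. Part of the spread of *Ttr* is the lane pair difference by which the members were chosen. With genotype, lane pair and their interaction all as covariates, which leaves only differences among mice of 1 genotype and lane pair, the 9 slopes were again above 0, from 0.07 to 0.96, but no gene passed, with 1376 genes at an unadjusted p under 0.05. *Cldn2* (0.96, SE 0.14, FDR 0.0824) and *Slc4a5* (0.86, SE 0.14, FDR 0.202) then had the lowest p-values of all genes.

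**Figure D3:**
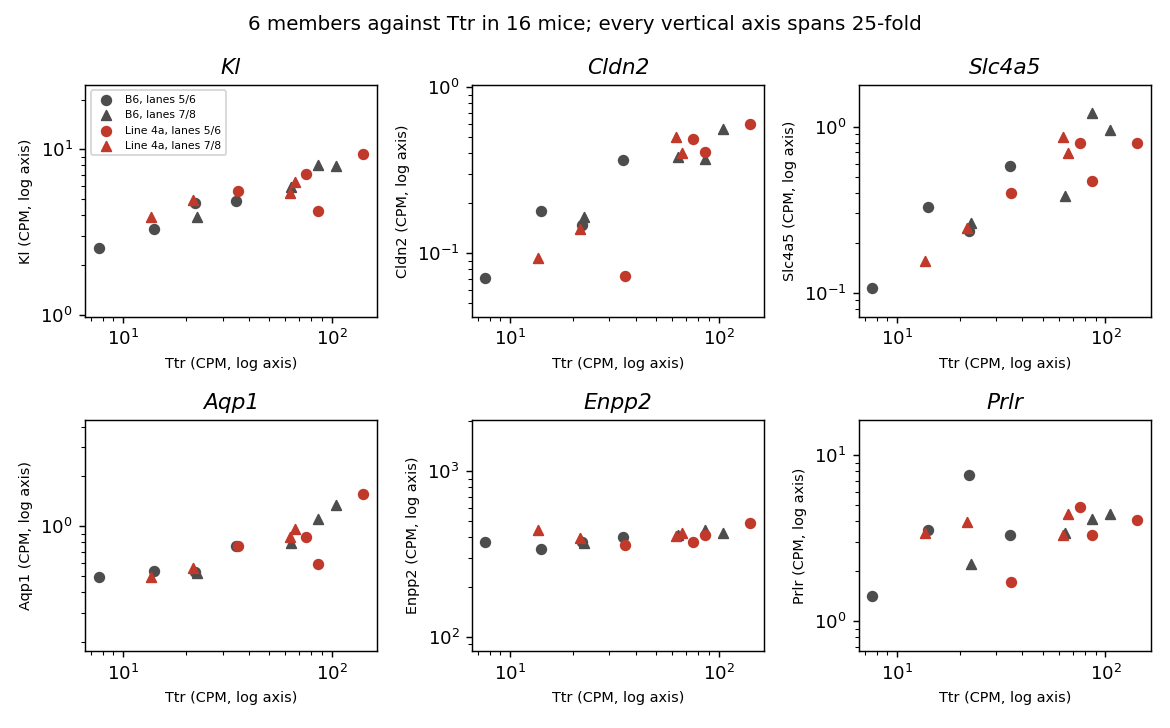
CPM of 6 members against CPM of *Ttr* in the 16 mice (both axes logarithmic, each vertical axis spanning the same ratio; grey B6, red Line 4a, circles lanes 5 and 6, triangles lanes 7 and 8). *Kl*, *Cldn2*, *Slc4a5* and *Aqp1* climb with *Ttr*, *Enpp2* is nearly level at 340 to 489 CPM, and *Prlr* has its highest point, 7.62 CPM, at a low *Ttr*.

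The sequences before the start sites of the 4 members that passed in the fit without lane pair are given as a description. Those passes are themselves a description, so nothing is read from the choice of these genes. Bases before RefSeq start sites (GRCm38.p6, the assembly of mm10) were matched by symbol for 6 members, with 11 windows of 250 bases. Capitals mark the 3 motifs searched on both strands, which are TATAAA of the TATA box, the promoter element CCAAT, and the core that OTX proteins bind, TAATCC. None overlap in the windows shown. The *Otx2* window, of a member that did not pass, is shown as the only 1 of the 11 with TAATCC.
*Kl*, chr5:150952357-150952606, plus strand: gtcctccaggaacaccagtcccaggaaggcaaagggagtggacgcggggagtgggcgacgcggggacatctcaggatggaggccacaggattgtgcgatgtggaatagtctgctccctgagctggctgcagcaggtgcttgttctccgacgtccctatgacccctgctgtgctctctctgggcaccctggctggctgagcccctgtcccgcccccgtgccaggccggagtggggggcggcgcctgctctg
*Cldn2*, chrX:139800558-139800807, plus strand: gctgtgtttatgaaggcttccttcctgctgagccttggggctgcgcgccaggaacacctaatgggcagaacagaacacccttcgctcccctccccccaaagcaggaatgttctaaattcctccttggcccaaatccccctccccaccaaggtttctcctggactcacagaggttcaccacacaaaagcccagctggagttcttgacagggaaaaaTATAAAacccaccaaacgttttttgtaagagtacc
*Slc4a5*, chr6:83237125-83237374, plus strand: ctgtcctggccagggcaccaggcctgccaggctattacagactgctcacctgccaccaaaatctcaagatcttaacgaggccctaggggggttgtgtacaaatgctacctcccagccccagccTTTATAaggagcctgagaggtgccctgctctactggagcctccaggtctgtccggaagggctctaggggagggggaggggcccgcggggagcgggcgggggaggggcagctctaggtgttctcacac
*Aqp1*, chr6:55336049-55336298, plus strand: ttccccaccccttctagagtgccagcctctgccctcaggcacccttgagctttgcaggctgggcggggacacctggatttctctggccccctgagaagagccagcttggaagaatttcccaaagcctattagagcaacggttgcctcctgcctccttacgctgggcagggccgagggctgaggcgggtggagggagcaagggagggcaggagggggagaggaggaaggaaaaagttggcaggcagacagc
*Otx2*, chr14:48665110-48665359, minus strand: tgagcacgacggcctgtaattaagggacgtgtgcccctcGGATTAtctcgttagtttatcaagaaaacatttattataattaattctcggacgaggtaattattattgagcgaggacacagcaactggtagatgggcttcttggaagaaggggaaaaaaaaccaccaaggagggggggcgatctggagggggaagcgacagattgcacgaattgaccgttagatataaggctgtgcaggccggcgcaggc
TATAAA stood in 3 of the 11 windows, 1 each of *Slc4a5* (on its reverse strand), *Cldn2* and *Otx2*, and in 12.4% of the 32851 windows searched over all genes. CCAAT stood in 2 of the 11, 1 each of *Otx2* and *Prlr*, beside 33.8% of all windows, and TAATCC in 1, the *Otx2* window shown, on its reverse strand, beside 6.25%. The windows of *Kl* and *Aqp1* held none of the 3 motifs. A match is a string of letters here, and no data on binding were taken.

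Between the genotypes the members differed little relative to their spread. *Ttr* was 44.5 ± 36.1 CPM in B6 and 62.9 ± 41.1 CPM in Line 4a (SD, n = 8 each), a log2 fold change of 0.51 (SE 0.50), and 1 Line 4a mouse lay above every B6 mouse. *Kl* had a lowest, median and highest value of 2.54, 4.82 and 8.03 CPM in B6 and 3.89, 5.55 and 9.43 CPM in Line 4a, a log2 fold change of 0.20 (SE 0.22). For *Aqp1* the same values were 0.495, 0.649 and 1.35 CPM in B6 and 0.495, 0.815 and 1.56 CPM in Line 4a, with a log2 fold change of 0.15 (SE 0.26). The genotypes overlapped over most of their range for every member. *Slc4a5* (0.106, 0.355 and 1.21 against 0.155, 0.583 and 0.863 CPM) and *Cldn2* (0.0707, 0.272 and 0.556 against 0.0730, 0.403 and 0.602 CPM) had log2 fold changes of 0.21 (SE 0.41) and 0.31 (SE 0.42).

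The log2 fold changes of the 10 members ran from −0.05 (*Prlr*) to 0.51 (*Ttr*), 9 of them above 0, with a median of 0.21, whereas the median over all genes was 0.01 and 54.9% of genes were above 0. Over all genes, 1, or 0.00641%, passed an FDR of 5% and 10% had an unadjusted p under 0.05 (edgeR's quasi-likelihood test). The members, 0 of which did either, were chosen on this contrast, so nothing is read from their count. The gene that passed was *Tnip1*, which encodes an inhibitor of inflammatory signalling (log2 fold change 0.39, SE 0.05, FDR 0.00637).

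Within lane pairs the members differed between genotypes in opposite directions. On lanes 5 and 6, *Ttr* was 19.7 ± 11.7 CPM in B6 and 84.7 ± 44.0 CPM in Line 4a (SD, n = 4 each), a log2 fold change of 2.10 (SE 0.49). The groups did not overlap for *Ttr*, although the nearest mice had 34.8 and 35.4 CPM. On lanes 7 and 8, *Ttr* was 69.4 ± 35.3 CPM in B6 and 41.2 ± 27.4 CPM in Line 4a, a log2 fold change of −0.75 (SE 0.52) with overlapping groups.

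*Kl* followed the same pattern, from 3.87 ± 1.14 to 6.60 ± 2.21 CPM on lanes 5 and 6 and from 6.46 ± 1.97 to 5.19 ± 1.04 CPM on lanes 7 and 8. *Aqp1* went from 0.580 ± 0.120 to 0.949 ± 0.426 CPM on the first pair of lanes and from 0.944 ± 0.360 to 0.719 ± 0.228 CPM on the second. *Folr1* had log2 fold changes of 1.04 (SE 0.54) and −0.49 (SE 0.29) in the 2 lane pairs. *Prlr* was the exception, with −0.19 (SE 0.46) and 0.10 (SE 0.20), and *Enpp2* hardly differed, with 0.13 (SE 0.11) and 0.01 (SE 0.07).

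On lanes 5 and 6, 9 of the 10 members had a log2 fold change above 0, with a median of 0.85, and 1 of the 10 had groups that did not overlap, beside 2.46% of all genes in either direction. On lanes 7 and 8, 2 of the 10 were above 0, with a median of −0.33, and none had groups that did not overlap, beside 5.47% of all genes. The difference between the lane pairs, fitted as an interaction over all genes, was −2.85 (SE 0.80) on the log2 scale for *Ttr* and had a median of −1.16 over the members, 9 of them below 0. With single mice left out, Line 4a mouse 1 among them, that median ran from −1.40 to −0.97. In that fit 0% of the 15589 genes passed an FDR of 5%, with 293 genes, or 1.88%, at an unadjusted p under 0.05 (edgeR's quasi-likelihood test). Whether lane pair stands for anything beyond the sequencing lanes is not in the labels, and with 4 mice in each group the values cannot be told apart from differences among single mice.

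**Figure D4:**
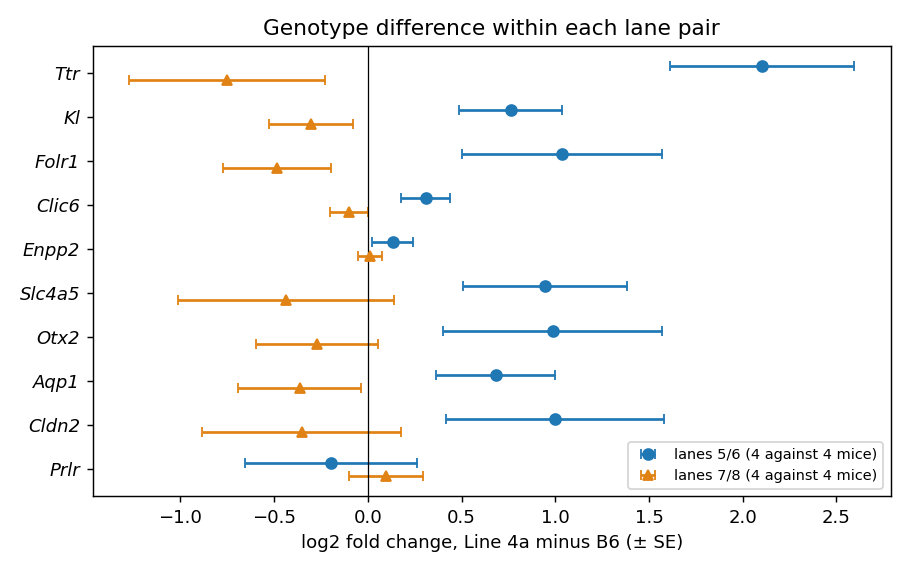
Log2 fold change (Line 4a minus B6, ± SE from the fit in each lane pair, 4 against 4 mice) of the 10 members, blue circles for lanes 5 and 6 and orange triangles for lanes 7 and 8. Except for *Prlr*, every circle lies to the right of 0 and of its triangle, and *Ttr* has the widest gap, from 2.10 to −0.75.

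Other genes known from choroid plexus epithelium were split by how abundant they were. Of 37 listed, 36 were in the files and 25 passed the filter, and in the genotype fit none of the 25 passed, with 5 at an unadjusted p under 0.05 and a median log2 fold change of 0.10. In the fit on *Ttr*, 22 of the 25 had a slope above 0, with a median of 0.10, and 1 passed (*1500015O10Rik*). None of the 9 with a mean of at least 10 CPM had an unadjusted p under 0.05, and 8 of the 16 below 10 CPM did, beside 2.44% of all genes. This fit keeps the differences between lane pairs, so these counts and those of the lists below are a description.

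Among the abundant ones, some were nearly level between the mice of lowest and highest *Ttr*, and others were not. *Car12*, a carbonic anhydrase gene, was at 57.7 CPM in the mouse of lowest and 62.2 CPM in the mouse of highest *Ttr*, and *Htr2c*, a serotonin receptor gene, at 63.5 and 56.0 CPM. In the same mice *Slc29a4* was at 6.71 and 14.8 CPM, *Steap2* at 15.9 and 24.9 CPM, and *Trpm3* at 38.2 and 56.7 CPM. *Ace* was at 41.5 and 50.7 CPM and *Col9a3* at 20.5 and 25.2 CPM. *Sulf1*, at 21.9 and 19.9 CPM, and *Igfbp2*, at 12.2 and 9.83 CPM, were lower in the mouse of highest *Ttr*. Over all mice, the slopes of *Ace*, *Trpm3*, *Steap2* and *Col9a3* were 0.03 to 0.07. That of *Sulf1* was −0.03, and those of *Slc29a4* and *Igfbp2* were 0.10 and 0.11. Among the rarer genes that did not pass, the steepest slopes, named after their values were seen, were those of *Kcnj13* (0.57, SE 0.11), *Kcne2* (0.47, SE 0.09) and *Sostdc1* (0.45, SE 0.09), with FDRs of 0.181 to 0.260. *Kcnj13* and *Kcne2* encode parts of potassium channels of the apical membrane. Under the filter were 11 genes, with 0 counts over the 16 mice for *Mfrp* and up to 160 for *Tmem72*.

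**Figure D5:**
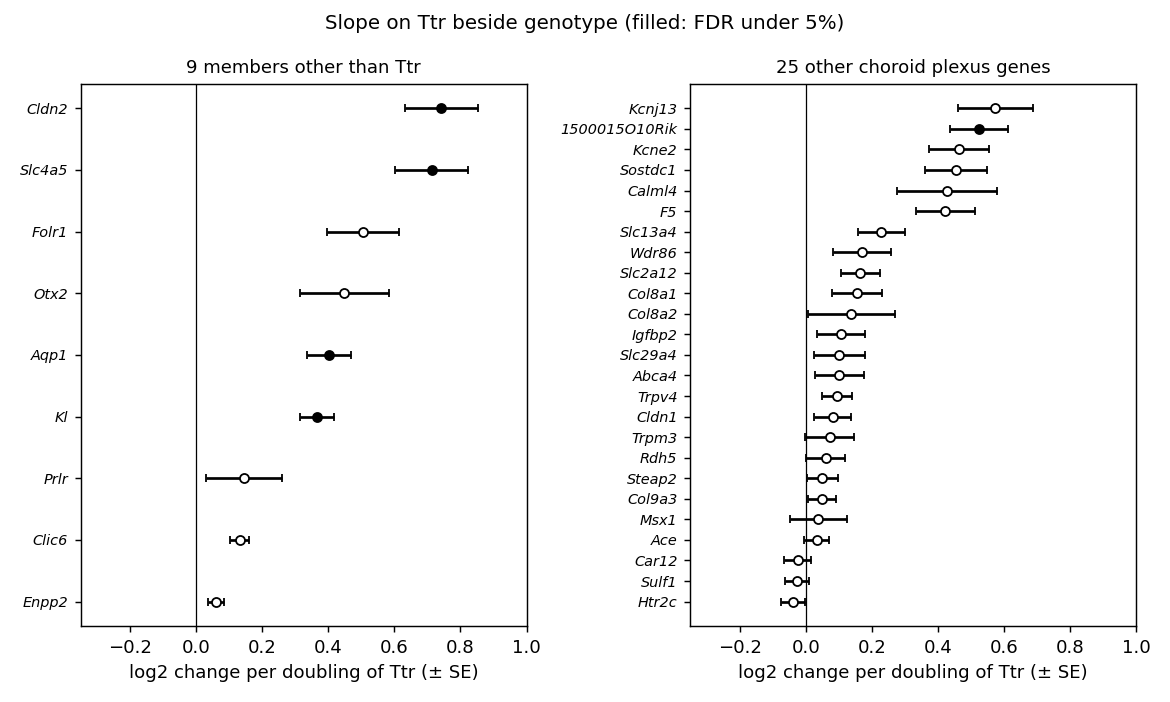
Slope of each gene on log2 CPM of *Ttr* (log2 change per doubling of *Ttr*, ± SE, genotype in the fit), for the 9 members other than *Ttr* and for 25 other choroid plexus genes; filled points passed an FDR of 5%. All 9 members and 22 of the 25 others lie above 0, and the filled points are *Cldn2*, *Slc4a5*, *Aqp1*, *Kl* and *1500015O10Rik*.

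Genes of ion transport, which many brain cells share with the choroid plexus, were read in the same fits. None of 12 passed in either fit, 6 had an unadjusted p under 0.05 in the genotype fit and none for the slope, with a median slope of 0.02, and *Atp1b1* and *Atp1b2*, sodium pump subunits, had slopes of 0.00 (SE 0.03) and 0.04 (SE 0.04). The sum of the list was 3097 to 3230 CPM in B6 and 3051 to 3513 CPM in Line 4a.

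Genes of the tissues that adjoin the choroid plexus came next. Of 14 fibroblast and meningeal genes, none passed and 13 had slopes above 0, with a median of 0.09, and 2 had an unadjusted p under 0.05. *Igf2*, a growth factor gene of meninges and choroid plexus stroma, was one of these, with a slope of 0.10 (SE 0.03, FDR 1.00), while *Bgn* and *Slc13a3* had 0.03 and −0.01. Their sum was 110.4 to 147.7 CPM in B6 and 119.0 to 169.5 CPM in Line 4a, and it was 110.4 CPM in the mouse of lowest and 134.8 CPM in the mouse of highest *Ttr*. Genes of the ciliated ependyma that lines the ventricle went the other way in sign, with 1 of 14 slopes above 0, a median of −0.12, and none passing. *Foxj1*, the regulator of motile cilia, had 0.03 (SE 0.04), *Rarres2* −0.12 (SE 0.07) and *Rsph1* −0.02 (SE 0.06). Their sum was 20.1 to 37.4 CPM in B6 and 22.5 to 35.5 CPM in Line 4a, and *Tmem212* was at 0 counts in at least 1 mouse.

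The parts that the punch position or these tissues had in the members' spread were not tested. Of 10 cortical glutamatergic genes, 10 had a log2 fold change below 0 between genotypes, with a median of −0.50, 7 at an unadjusted p under 0.05 and none past an FDR of 5%, whereas on *Ttr* none had an unadjusted p under 0.05 (median slope −0.05). *Slc17a7*, *Nptx1* and *Rasgrf2* had slopes of −0.03, −0.10 and −0.04. Their sum was 600.2 to 937.3 CPM in B6 and 417.3 to 828.4 CPM in Line 4a. Of 6 thalamic genes, none passed and 2 had an unadjusted p under 0.05 for the slope (median 0.10), among them *Prkcd* (0.10, SE 0.04), while *Slc17a6* had 0.14 (SE 0.15) and *Plekhg1* 0.05 (SE 0.05). Their sum was 60.2 to 119.1 CPM in B6 and 70.1 to 105.6 CPM in Line 4a.

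Of 13 striatal projection neuron genes, 0 had an unadjusted p under 0.05 on *Ttr*, with a median slope of −0.02 and slopes of 0.00, 0.01 and −0.03 for *Ppp1r1b*, *Penk* and *Pde10a*. Of 8 astrocyte genes, 0 did, with a median slope of 0.02 and 0.00, 0.02 and 0.02 for *Slc1a2*, *Slc1a3* and *Gja1*. Of 8 endothelial genes, 1 had an unadjusted p under 0.05, the median slope was 0.03, and *Slco1a4*, *Slco1c1* and *Flt1* had 0.08, 0.04 and 0.02. None of these 3 lists had a gene past an FDR of 5% in either fit. Their sums overlapped between genotypes, at 6260 to 9219 and 6827 to 7901 CPM, 5420 to 6211 and 4504 to 6123 CPM, and 338.1 to 476.2 and 404.4 to 472.8 CPM in B6 and Line 4a.

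*Enpp2* is also a gene of myelinating oligodendrocytes, and its level was set against 10 of their genes. Its log2 CPM had an r of 0.72 with their mean centred log2 CPM over the 16 mice (permutation p = 0.00112, two-sided) and a rho of 0.57 (permutation p = 0.024), the only relation to a marker list that was tested. Both values of a mouse share its punch, library and scaling, which the permutation does not take out. Nor does it take out differences between genotypes or lane pairs, with which *Enpp2* was chosen, so r, rho and their p-values are a description. Without the 2 mice farthest from the median r was 0.52, and it was 0.75 within lanes 5 and 6 and 0.64 within lanes 7 and 8. On *Ttr* the oligodendrocyte genes had a median slope of 0.03, with 9 of 10 above 0 and none at an unadjusted p under 0.05, and *Mbp* and *Cnp* each had 0.03. In the genotype fit none of them passed or had an unadjusted p under 0.05. Their sum was 10265 to 14653 CPM in B6 and 11350 to 15940 CPM in Line 4a.

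The 10 other genes of at least 1 CPM whose log2 CPM was most like the members' mean, by Pearson's r over the 16 mice, were *Hk3*, *F5*, *Il10ra*, *Neu4*, *Mylip*, *Slc2a12*, *Cpne1*, *Pola2*, *Tgfb2* and *Pbxip1*, with r from 0.85 down to 0.75. *F5*, the coagulation factor V gene, and *Slc2a12*, a glucose transporter gene, are among the choroid plexus genes listed above, and the other 8 are in none of the lists. *F5* went from 1.34 CPM in the mouse of lowest to 5.10 CPM in the mouse of highest *Ttr* (slope 0.42, SE 0.09, FDR 0.260). None of the 10 passed in the fit on *Ttr*, and the slopes of the other 9 were 0.05 to 0.18.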

How the data were processed

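Messenger RNA of 16 striatal libraries was sequenced as 50 bp single-end reads. Per the labels and the study's methods, the authors aligned reads to mm10 with TopHat and counted them per gene with HTSeq 0.6.1p1 in union mode without strand, and they deposited raw counts for each mouse and lane, with multiply aligned and ambiguous reads left out. Rows of no gene (31.7% to 38.6% of reads) were dropped here. The deposited table of the authors' own comparison (log2 fold changes, p-values) was not used.

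The 31 lane files were summed to 16 mice. Genes were filtered with filterByExpr (minimum count 10), scaled by TMM and tested with edgeR 4.0.16 (quasi-likelihood, R 4.3.3) for genotype, its interaction with lane pair, and a slope on log2 CPM (prior count 0.5) of *Ttr*. Standard errors are the log2 value over the square root of F. Home cage, which the study modelled, is not in the labels. The labels do not tie the mouse numbers to litters or days. Replicates are single mice, so p-values measure spread between mice. Alternatives were RLE and upper-quartile scaling, other filters, DESeq2 1.42.0, a likelihood ratio test, lane pair as a covariate, a replicate block, the second lane alone, and each mouse left out.

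The members and gene lists were chosen with earlier results of these data known. Genes named are the members, the 10 most like their mean, the 10 most abundant other choroid plexus genes, the 3 most abundant of every other list, and any gene passing the genotype fit; exceptions are stated, and 2 genes under this rule are not reported here. In simulated counts (15588 genes) with 100 genes changed at each slope, 85% of slopes of 0.3 and 99% of slopes of 0.6 were called. There were 6 false calls. More genes were changed there than passed here, and they were drawn from all levels. These shares therefore do not carry over to members of few reads.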

Additional observations from a re-analysis of the deposited data

Results flagged for a closer look

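Over the 57 genes named, read in each genotype (114 groups of 8 mice), 18 groups had a mouse whose gap to the nearest other mouse exceeded Dixon's criterion relative to the range of the group, where chance gives about 1 in 20. Of the 10 members only *Aqp1* was among them, with 1.56 CPM in Line 4a mouse 3, next to 0.962 CPM, and *Hk3*, the gene most like the members, stood out in the same mouse with 4.86 CPM.

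In Line 4a mouse 1, 9 genes stood apart. *Atp1b1* (1362 CPM), *Atp1b2* (721 CPM), *Bgn* (23.4 CPM), *Ppp1r1b* (1934 CPM) and *Penk* (1660 CPM) were highest there, and *Car12* (48.8 CPM), *Sulf1* (12.3 CPM), *Pde10a* (1013 CPM) and *Flt1* (33.4 CPM) lowest. In that mouse *Ttr*, at 86.0 CPM, was among the 4 highest values of the 16, and *Kl*, at 4.26 CPM, was below its median.

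In B6 mouse 2, *Mbp* (4230 CPM), *Cnp* (673 CPM) and *Foxj1* (9.34 CPM) were lowest, and *Enpp2* had its lowest level of all mice there, 340 CPM. The others were *Slc13a3* in B6 mouse 4 (18.9 CPM), *Slco1c1* in B6 mouse 6 (105.5 CPM), and *Nptx1* (145.0 CPM) and *Prkcd* (14.01 CPM) in Line 4a mouse 2.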

How the results depend on the processing

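The median log2 fold change of the members between genotypes was 0.07 to 0.34 with single mice left out and moved beyond the spread between mice only on lanes 5 and 6 alone (0.85), where fewer mice enter. Its sign turned on lanes 7 and 8 alone (−0.33) and, over the other 9, with *Ttr* as a covariate (−0.09), both within that spread. The differences within lane pairs were known when the members were chosen, so nothing is read from the values of either lane pair. Genes called by genotype numbered 20 by the likelihood ratio test, 31 by DESeq2, 2 with lane pair as a covariate, 0 in either lane pair alone, and 1 to 4 with single mice left out. In the other marker lists 1 gene was called by the likelihood ratio test and 1 by DESeq2. Same-numbered mice correlated between −0.12 and 0.36 in their deviations from the group means, 2 of 8 best with their own number, so the numbers were not taken as pairs. A replicate block left 0 genes called.

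In the fit on *Ttr*, added after the data were seen, members called (4) numbered 1 at a filter of 1 CPM, which removes *Cldn2*, *Slc4a5* and *Aqp1*, 1 on the second lane alone, where *Cldn2* and *Slc4a5* fall under the filter, 0 with lane pair as a covariate, 0 with its interaction too, 0 in either lane pair, and 0 to 4 with single mice left out. Genes called (6) numbered 1 at a filter of 1 CPM, 3 without a filter, 2 on the second lane alone, 11 by the likelihood ratio test, 10 by DESeq2, 0 in the fits with lane pair and within lane pairs, and 0 to 8 with single mice left out. The cause of the other changes was not tested. Every slope of the 9 members kept its sign in every fit that gave one. At most 32 reads a mouse behind *Slc4a5*, *Folr1*, *Otx2* and *Cldn2*, and at most 39 behind *Aqp1*, limit their precision.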
